A study of Mus musculus with 6 samples.

Results

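The Dlk1-Meg3 domain is an imprinted region of mouse chromosome 12, taken here as 109.4 to 109.78 Mb on GRCm39. Its members are the deposited genomic intervals, called rows below, that lie wholly within these limits: 246 of 1272548 rows in the table. Sequencing took in small RNAs of 15 to 36 nt from testis germ cells of Dnmt3l wild-type (WT) and Dnmt3l knockout (KO) C57BL/6 mice. The P0 samples were enriched germ cells of newborn testes (1 WT and 1 KO library), and the P8 samples were THY1+ cells, which are enriched for spermatogonial stem and progenitor cells, from testes at postnatal day 8 (2 WT and 2 KO libraries). Age therefore cannot be told apart from the cell preparation. The labels give all 6 libraries 1 batch label and do not describe the knockout allele or say whether animals were pooled or replicates came from separate animals. The spread that p-values rest on is thus that of the libraries alone and may be technical.

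Imprinted genes are expressed from only the maternal or only the paternal chromosome, according to DNA methylation laid down in the parents' germ cells. In this imprinted region the protein-coding genes Dlk1, Rtl1 and Dio3 are expressed from the paternal chromosome. The long non-coding RNAs Meg3, Rian and Mirg are expressed from the maternal chromosome, with the microRNAs and C/D box snoRNAs processed from that transcription. The intergenic control region between Dlk1 and Meg3 is methylated on the paternal chromosome, and this methylation is set in male germ cells by the de novo methyltransferase complex, in which DNMT3L is a partner without catalytic activity of its own. In spermatogonia the 15 to 36 nt range takes in microRNAs as well as piRNAs, which guide the silencing of transposons in the germline.

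RefSeq's gene list for GRCm38.p6, used here only for names, order and sequences because its build differs from that of the rows, runs Dlk1, Meg3, Rtl1, Rian, Mirg and Dio3. It places 0 microRNA genes between Dlk1 and Meg3, and 60 microRNA and 19 snoRNA genes from Meg3 to the end of Mirg. There is 1 further microRNA gene between Mirg and Dio3. Whether this gene and Dio3 lie within the limits used here was not checked. The 61 microRNA genes give 113 distinct mature sequences with 104 distinct seeds (bases 2 to 8, the part that pairs with targets). Only 9 seeds occur in more than 1 sequence, 18 sequences in all. The sequences below show the domain's known products, with the seed in capitals: a product of the transcript antisense to Rtl1, and 3 pairs that share a seed.
mmu-miR-127-3p: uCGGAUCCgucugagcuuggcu
mmu-miR-379-3p: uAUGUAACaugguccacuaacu
mmu-miR-411-3p: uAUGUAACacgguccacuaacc
mmu-miR-410-5p: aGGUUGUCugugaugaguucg
mmu-miR-494-5p: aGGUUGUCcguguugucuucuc
mmu-miR-376b-5p: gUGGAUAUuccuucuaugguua
mmu-miR-376c-5p: gUGGAUAUuccuucuauguuua
The rows carry coordinates and counts, but no gene name, strand, read length or read sequence. MicroRNA, piRNA and other fragments therefore cannot be told apart in the counts, and no read below is assigned to a gene or to any of these microRNAs. Marker loci of the sorted cells need gene positions on GRCm39 and were not analysed here.

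The 246 rows measured 139 to 36609 bp (median 1167 bp) and overlapped, with up to 47 rows over the same base. They covered 128.4 kb, or 33.8%, of the 380 kb domain in 16 separate blocks. Of the rows, 180 had a read in at least 1 library and 66 had none. In 1998 pairs where a row lay inside another, the inner row had more reads than the outer row in 0 pairs, so reads could be placed by subtraction. A set of 17 rows that do not overlap, chosen by reads from the domain's own rows, is used for sums. Levels are given as CPM, reads divided by a library total and scaled by trimmed mean of M-values (TMM) factors. This total is over those rows of a non-overlapping set of the genome that passed the read filter. The 6 libraries had 4370403 to 6119823 reads in the set over the genome.

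Small RNA reads from the domain were few, and they were concentrated in its first 128 kb. The 17 rows had 1273 reads in the WT P0 library and 700 in the KO P0 library. At P8, WT libraries had 255 and 247 reads and KO libraries 201 and 213. Of the 2889 reads in the 17 rows, 91.9% were in 3 rows, called the first, the second and the third large row in order of position: chr12:109402706-109425924, chr12:109460959-109479258 and chr12:109511803-109528033. Reads that lay only in rows overlapping the chosen ones are left out of the sums, shares and densities. For example, chr12:109474788-109496695 held 97 reads over 6 libraries, of which 17 were in the nested row chr12:109474801-109485518. The chosen rows that reach into the rest of it held 12, 1 and 3 reads. Per covered base, the domain had 139% of the mean density of all covered sequence in WT P0 and 107% in KO P0, and 27.3% to 29.6% in the 4 P8 libraries. In bulk samples such as these, fewer cells of a type and less RNA per cell cannot be told apart.

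**Figure D1:**
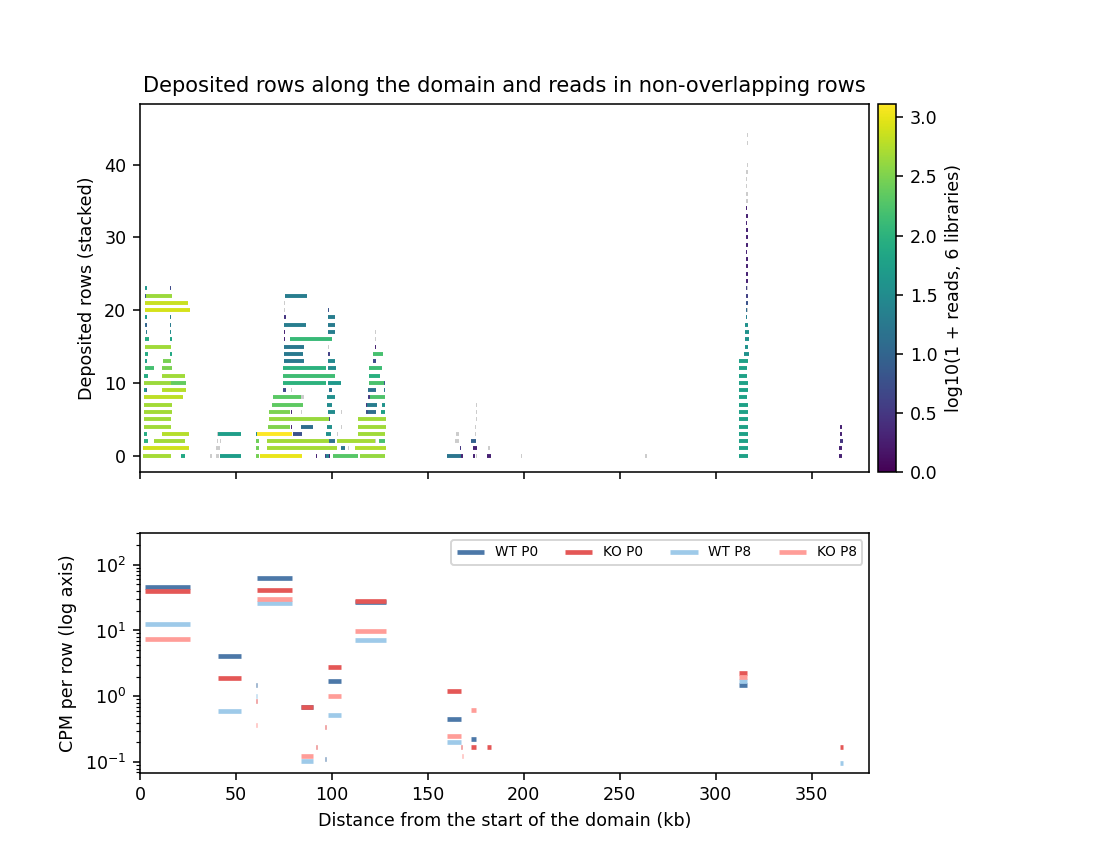
Top, all 246 deposited rows, stacked where they overlap, against distance from the start of the domain in kb, coloured by log10 of 1 plus their reads over 6 libraries (grey: no read). Bottom, CPM on a log axis in each of the 17 non-overlapping rows for the WT P0 and KO P0 libraries and the means of 2 WT P8 and 2 KO P8 libraries. Values of 0 are not drawn on the log axis. The 3 large rows lie in the first 128 kb, and in each of them the P0 levels are above the P8 levels.

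Beyond the third large row the domain was nearly empty in this table. The remaining 252 kb had 85 rows that covered 22.4 kb (8.90%) of it. The 7 of them in the non-overlapping set held 87 reads over all 6 libraries, 3.01% of the reads in the 17 rows. There were 19 in WT P0, 24 in KO P0, 9 to 11 in WT P8 and 11 to 13 in KO P8. Of these, 59 came from a stack of 50 overlapping rows within 5.26 kb, represented by chr12:109712260-109716546. It had 13 reads in each P0 library, 8 or 9 in each WT P8 library and 6 or 10 in the KO P8 libraries, and the levels of WT and KO overlapped at P8. The row at chr12:109572610-109575304 had 5 reads in KO P8 replicate 1 and 0 to 2 in the other libraries. Sequence of the domain that no row covers has no count here, so these values do not show that its microRNAs were absent.

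At P8 the domain's summed level was close in the 2 genotypes, and whether they overlapped depended on the set of rows. With the domain's own rows chosen first, the WT libraries summed to 49.1 and 52.0 CPM (mean 50.6 ± 2.06, SD, n = 2). The KO libraries summed to 49.96 and 53.3 CPM (mean 51.6 ± 2.34, SD, n = 2). These values interleaved. With the domain rows of the genome-wide set, which leaves out part of the first large row, WT summed to 42.6 and 44.0 CPM (mean 43.3 ± 1.03, SD, n = 2) and KO to 45.7 and 47.5 CPM (mean 46.6 ± 1.26, SD, n = 2), so that both KO libraries lay above both WT libraries. The 3 large rows differed in direction. In the first large row WT had 12.1 and 13.1 CPM and KO 5.72 and 9.25, so that both KO libraries lay below both WT libraries. In the second, WT had 27.0 and 26.1 CPM and KO 28.6 and 30.8. In the third, WT had 6.16 and 8.22 CPM and KO 10.7 and 9.25. In both of these rows the KO libraries lay above the WT libraries. The share of all rows in which 2 WT and 2 KO libraries separate in this way was not counted. Neither these separations nor those below are therefore a result about the domain.

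**Figure D2:**
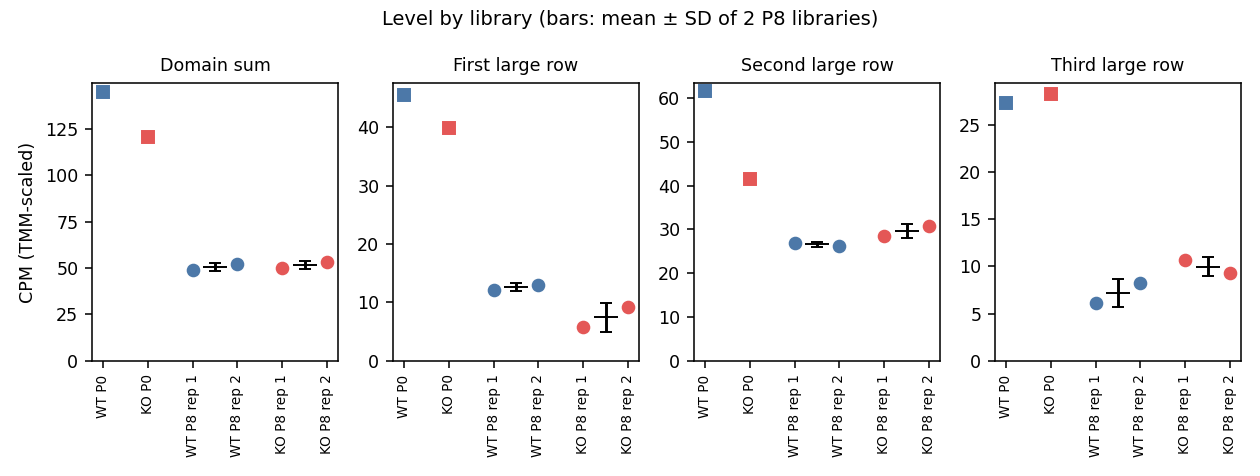
CPM in each of the 6 libraries for the sum over the domain's 17 non-overlapping rows and for each large row (blue: WT, red: KO; squares: P0, circles: P8; black bars: mean ± SD of 2 P8 libraries). The P8 libraries lie below the P0 libraries in all 4 panels, and at P8 the KO libraries lie below the WT libraries in the first large row and above them in the other two.

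A row within the first large row was called lower in KO at P8, and 6 of 10 alternatives did not make this call. In the fit to the set chosen over the whole genome, 3 domain rows had enough reads to be tested at P8, and 1 was lower in KO and 0 higher (edgeR's quasi-likelihood test with Benjamini-Hochberg adjustment over 23200 rows). Of all rows tested, 20.1% were lower and 22.5% higher, so 1 in 3 is not a result about the domain. The lower row was chr12:109415999-109424022, which lies in the first large row and stands for it in that set, because a longer row that crosses the domain's edge took the rest. Its reads at P8 were 29 and 24 for WT and 6 and 14 for KO. The log2 fold change was -1.06 ± 0.40 (SE), with an adjusted p of 0.0481 in edgeR. It was -0.58 without KO P8 replicate 1 (adjusted p 0.330 in edgeR) and -1.78 without KO P8 replicate 2 (adjusted p 0.00622). With the domain's own rows chosen first, the same shares of all rows were called, and the first large row had a log2 fold change of -0.72 ± 0.25 (SE, edgeR adjusted p 0.0373). DESeq2 gave -0.72 with an adjusted p of 0.248, and without KO P8 replicate 1 edgeR gave -0.42 with an adjusted p of 0.271. Without WT P8 replicate 1 or 2 the adjusted p was 0.105 or 0.145. The call held without KO P8 replicate 2 (-1.10, edgeR adjusted p 0.00212), with a replicate block (-0.73, 0.00733) and with total reads (-0.80, 0.0236), and was not made without a read filter (-0.70, 0.203). The second large row had a log2 fold change of 0.19 ± 0.14 (SE, edgeR adjusted p 0.304) and the third one of 0.51 ± 0.25 (SE, edgeR adjusted p 0.121). In the authors' deposited table of log2 CPM, the mean of the KO libraries minus that of the WT libraries was -0.85, 0.06 and 0.36 in the first, the second and the third large row.

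When every deposited row was tested, the calls stayed within the first large row's block. Of 38 domain rows with enough reads, 6 were lower in KO and 0 higher, where 21.0% of all 247651 rows tested were lower and 22.9% higher. The median log2 fold change was 0.02 over the 38 rows and -0.01 over all rows. The 6 rows, with log2 fold changes from -1.18 to -0.85 and adjusted p from 0.0118 to 0.0271 in edgeR, all contain chr12:109415999-109424022 and so are repeated readings of the same reads. Of the 14 rows tested in this block, 5 had a positive log2 fold change, up to 0.28, and all 5 ended between 109416374 and 109416723, before most of the shared stretch. In the block from the second large row to the third, 24 rows were tested and 0 called. Among them, 11 starting at or after chr12:109500647 had log2 fold changes from -0.29 to 1.19 (smallest adjusted p 0.109 in edgeR).

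**Figure D3:**
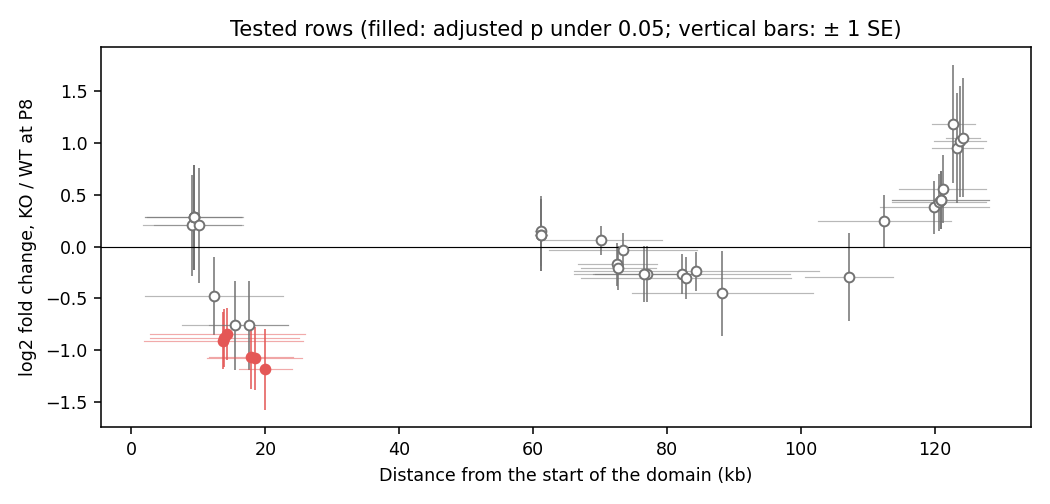
The log2 fold change of KO over WT at P8 for the 38 tested rows against the distance of the row's middle from the start of the domain in kb (filled red: adjusted p under 0.05 in edgeR; open grey: not called; vertical bars: ± 1 SE; horizontal lines: extent of the row). The 6 called rows lie together at the left end, and 10 of the 11 rows furthest to the right lie above 0 without being called.

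Subtracting nested rows placed the first large row's reads in 5 pieces, and these differed in their profile. Pieces 1 and 2, the 13.7 kb at chr12:109402725-109416420, held 264 of 400 reads in WT P0 (66%, 95% Clopper-Pearson interval 61.1 to 70.6%, which like those below covers counting error only) and 140 of 231 in KO P0 (60.6%, 54.0 to 67.0%). At P8 they held 5 of 63 and 13 of 62 reads for WT, and 9 of 23 and 10 of 37 for KO. Their P0 levels were 30.1 CPM for WT and 24.1 for KO. Their P8 levels were 0.963 and 2.74 CPM for WT and 2.24 and 2.50 for KO. The P8 libraries were thus all far below the P0 libraries here, with the genotypes interleaved. Pieces 3 to 5, 9504 bp at chr12:109416421-109425924, had P0 levels of 15.5 CPM for WT (136 reads) and 15.7 CPM for KO (91 reads). At P8, WT had 58 and 49 reads (11.2 and 10.3 CPM) and KO 14 and 27 (3.48 and 6.75 CPM). The 2 P0 levels were close to each other here, and at P8 both KO libraries were below both WT libraries.

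The narrowest of the 5 pieces was piece 4, 862 bp at chr12:109423325-109424186. P0 gave 31 reads for WT and 24 for KO, and P8 gave 25 and 23 for WT and 7 and 8 for KO. In WT this was 7.75% of the row's reads at P0 (95% interval 5.33 to 10.8%), and 39.7% (27.6 to 52.8%) and 37.1% (25.2 to 50.3%) at P8. Reads are not known to be independent molecules, and the single P0 library has no replicate, so these shares were not tested between ages. At P8, WT averaged 4.83 ± 0.02 CPM and KO 1.87 ± 0.18 CPM (SD, n = 2 for each genotype), beside P0 levels of 3.53 CPM for WT and 4.14 for KO. With 7 to 25 reads a library, counting error is larger than the SD of these pairs. Piece 5, 877 bp at chr12:109425048-109425924, had 31 reads in each P0 library, and at P8 17 and 10 for WT and 5 and 9 for KO. As levels at P8 this was 3.28 and 2.11 CPM for WT and 1.24 and 2.25 CPM for KO, which overlap. In piece 3, WT had 3.08 and 3.37 CPM at P8 and KO 0.497 and 2.50 CPM. Row chr12:109401806-109425608 starts before the first large row and ends inside piece 5. At P8 it had 48 and 52 reads for WT and 18 and 28 for KO. The first large row had 63 and 62 for WT and 23 and 37 for KO. Most of piece 5's P8 reads thus lay after 109425608, in a narrower stretch than piece 4. The pieces were defined after the counts were seen and were not tested. Piece 1 also takes in 861 bp between pieces 4 and 5, and piece 4 takes in 60 bp between pieces 1 and 2, since nested rows do not separate these. The narrowest nested row with at least 50% of the first large row's reads was chr12:109411624-109423324 (56.4%).

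**Figure D4:**
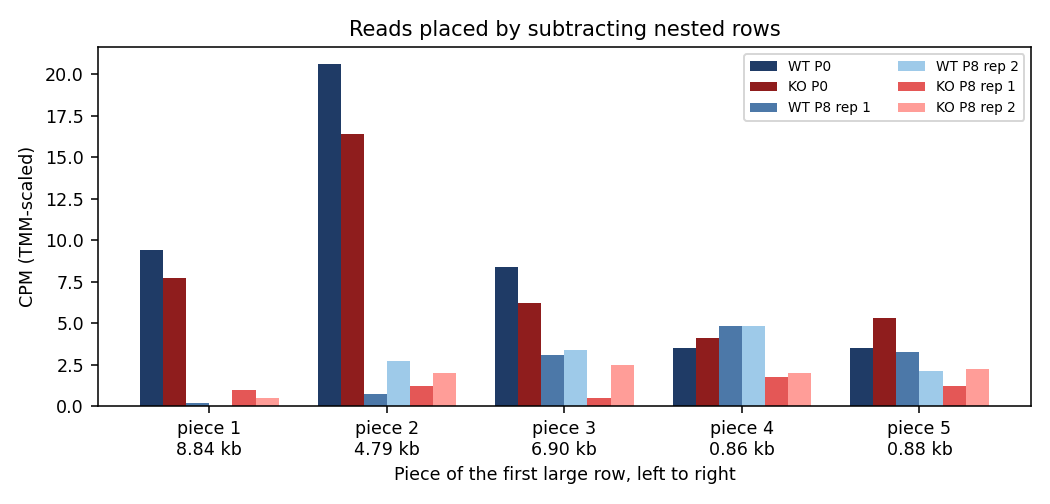
CPM in each library in the 5 pieces of the first large row, from left to right along the chromosome, with the length of each piece in kb (bars start at 0). Pieces 1 and 2 are high at P0 and low at P8 in both genotypes, and piece 4 is at 4.82 and 4.85 CPM in WT P8 against 1.74 and 2.00 CPM in KO P8.

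The second and the third large row could also be divided. In the second large row, the nested row chr12:109466649-109478415 had 98 reads for WT and 35 for KO at P0, and at P8 60 and 52 for WT and 43 in each KO library. The rest, of which 5.69 kb lies on the left at chr12:109460959-109466648 and 843 bp on the right, had 443 and 206 reads at P0, and at P8 80 and 72 for WT and 72 and 80 for KO. The rest, the outer part, took 81.9% of the second large row's reads in WT P0 (95% interval 78.4 to 85.0%) and 85.5% in KO P0 (80.4 to 89.7%). At P8 it took 57.1% and 58.1% in WT and 62.6% and 65.0% in KO, a smaller share in each P8 library than in either P0 library. At least 129 of the 541 reads in WT P0 lay in the first 1393 bp of the row. In the third large row, chr12:109519507-109527153 had 83 and 46 reads at P0, and at P8 3 and 10 for WT and 12 and 10 for KO. As levels at P8 this was 0.578 and 2.11 CPM for WT and 2.98 and 2.50 CPM for KO, with both KO libraries above both WT libraries at 3 to 12 reads. The 4843 bp to its left, with 441 bp to its right, had 99 and 65 reads at P0, and at P8 3.08 and 4.63 CPM for WT and 6.46 and 4.25 CPM for KO, which overlap. The narrowest nested row with at least 50% of the third large row's reads was chr12:109514664-109527594 (73.7%).

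At P0, with 1 library per genotype and no replicate check, the domain summed to 145 CPM for WT and 121 for KO. The KO library was 1.20-fold lower (95% counting interval 1.09 to 1.32, exact conditional binomial, which covers counting error only). In the second large row WT had 61.6 CPM and KO 41.6, 1.48-fold lower (1.27 to 1.73). The first large row had 45.5 and 39.8 CPM, a ratio of KO over WT of 0.875 (0.741 to 1.03), and the third 27.3 and 28.3 CPM, a ratio of 1.04 (0.844 to 1.27), and both intervals include 1. The row at chr12:109440629-109452575, between the first and the second large row, had 36 reads for WT and 11 for KO, a ratio of 0.463 (0.213 to 0.930). These values compare 2 libraries, not the genotypes.

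The domain's summed level was lower at P8 than at P0 in both genotypes. The sum went from 145 CPM in WT P0 to 50.6 ± 2.06 CPM in WT P8 (SD, n = 2), a 2.86-fold difference, and the KO sum from 121 CPM to 51.6 ± 2.34 CPM (SD, n = 2), a 2.34-fold difference. With total reads in place of TMM factors these folds were 4.83 and 3.77. The median log2 change of all rows tested was -0.47 in WT and -0.27 in KO with TMM factors, and -1.22 and -0.95 with total reads. The spread of the single P0 libraries was not measured, and the tests take it from the P8 pairs.

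Of 7 domain rows tested for age, 4 fell and 0 rose in WT, and 4 fell and 0 rose in KO (edgeR's quasi-likelihood test with Benjamini-Hochberg adjustment). A row needed enough reads in only 1 library to be tested here. The rows at chr12:109440629-109452575, chr12:109460558-109460882 and chr12:109497771-109504987 had them only at P0, which favours a fall. The counts are therefore not a result about the domain. Over the genome, 38.5% of rows fell and 29.5% rose in WT, and 31.3% fell and 26.4% rose in KO. With the domain's rows chosen first the domain counts were the same, beside 38.5% lower and 29.4% higher in WT and 31.2% lower and 26.4% higher in KO over the genome. The third large row had log2 changes of -1.93 ± 0.21 (SE, adjusted p 0.000130 in edgeR) in WT and -1.50 ± 0.21 (adjusted p 0.000732) in KO, and it was called under all 7 alternatives to the fit of the genome-wide set in each genotype. The first large row, tested with the domain's rows chosen first, fell by 1.85 ± 0.20 (SE) in WT and by 2.41 ± 0.23 in KO on the log2 scale (adjusted p 0.000135 and 9.61e-05 in edgeR). The row that stands for it in the genome-wide set was not called with DESeq2 (adjusted p 0.291 in WT and 0.0874 in KO) or without WT P8 replicate 1 (0.131 and 0.0841) or 2 (0.144 and 0.0820). The second large row fell by 1.21 ± 0.13 (SE, adjusted p 0.000147 in edgeR) in WT, and all 7 alternatives made this call. In KO it fell by 0.49 ± 0.14 (SE, edgeR adjusted p 0.0227), a call that 4 of 7 alternatives did not make. With total reads in place of TMM factors the change in KO was -1.17 (edgeR adjusted p 0.000110).

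The smaller rows had too few reads for firm statements. The row at chr12:109440629-109452575 had 36 and 11 reads at P0, 3 in each WT P8 library and 0 in each KO P8 library. It had enough reads for the age test only at P0, so the way it was admitted favours a call of lower at P8. It was called lower with age in both genotypes (adjusted p 0.00472 in WT and 0.00823 in KO in edgeR), but not without WT P8 replicate 1 (0.0942 and 0.0810) or 2 (0.0869 and 0.0794), nor in WT with DESeq2 (0.285). In WT the log2 change was -2.64 to -2.78 in these fits, close to the value below. In KO, DESeq2 gave no adjusted p for this row. The narrowest nested row with at least 50% of its reads was chr12:109441839-109452512 (98.1%). In WT the log2 change of chr12:109440629-109452575 was -2.72 ± 0.54 (SE). In KO its level at P8 was set to a floor of 3 reads over the group, which is 5.07-fold lower than at P0. Counting error of the 11 reads in KO P0 is not part of this value. The row at chr12:109460558-109460882 had 13 and 5 reads at P0, 5 in each WT P8 library and 2 and 1 in KO P8. The row at chr12:109497771-109504987 had 15 and 16 reads at P0, and at P8 1 and 4 for WT and 5 and 3 for KO, of which chr12:109497916-109501671 held 63.6%. Neither of these was called with age, nor was the distal stack at chr12:109712260-109716546 (log2 changes 0.21 ± 0.52 in WT and -0.17 ± 0.53 in KO, SE). The rows at chr12:109560115-109567267 and chr12:109483716-109490255 had at most 7 reads in a library, those at chr12:109496629-109497109 and chr12:109497356-109497634 at most 2, and the other 5 rows at most 1.

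The difference between genotypes was not shown to change with age at any tested domain row. Of 7 rows, 0 were called for the interaction of genotype and age by edgeR, with 1 at an unadjusted p under 0.05. Of all rows, edgeR called 7.72% (7.65% with the domain's rows chosen first). DESeq2 gave an adjusted p only for the second and the third large row, and called neither. The row with an unadjusted p under 0.05 was the second large row, with an interaction of 0.73 ± 0.20 (log2, SE, edgeR adjusted p 0.0743). With total reads in place of TMM factors its adjusted p was 0.0458 in edgeR. Over 7 alternatives its interaction was 0.63 to 0.87 (log2), and 2 made a call while 5 did not. The first large row had an interaction of -0.55 ± 0.32 (log2, SE, edgeR adjusted p 0.372), and the third one of 0.43 ± 0.31 (edgeR adjusted p 0.476).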

How the data were processed

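Raw counts of reads in 1272548 genomic intervals were deposited for 6 libraries, and log2 CPM values for the P8 libraries, which the authors scaled with TMM factors per the file name. Tools in the submitters' processing notes were bedtools, Bowtie 1.1.1, cutadapt 1.13, FastQC 0.10.1 and TopHat2 2.1.1, and the build was GRCm39. Sources used here do not say what each tool did, how multiply mapped reads were handled or how intervals were defined. Starts are counted from 1.

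Non-overlapping rows were chosen over the genome by mean CPM, most reads first (88351 rows). For sums the domain's own rows were chosen first, a choice made after seeing the data, because a row crossing the domain's edge displaced part of the first large row. Fits used edgeR 4.0.16 in R 4.3.3 (filterByExpr, TMM, glmQLFit, glmQLFTest, two-sided, threshold 0.05) on the P8 libraries, or on 4 groups for age and interaction. They were also run on simulated counts with the same dispersion in every row and library and changes only in rows with more reads. That run does not check the single P0 libraries or rows with few reads. The SE is the absolute log2 fold change over the square root of F. DESeq2 1.42.0, total-read scaling, no filter, other sets of rows, a replicate block and each P8 library left out were the alternatives. A chi-square test over rows separated the replicates (3.24 per degree of freedom for WT, 3.76 for KO). Among the non-overlapping rows, values were given for the 12 of highest mean CPM, those called at P8 with a mean of at least 10 CPM, and the narrowest nested row with at least 50% of the reads in each of the 6 rows with most reads. Members and lists were chosen with earlier results of these data known. Gene and microRNA positions on GRCm39 were not used here, so rows were not placed on genes, and the planned checks by gene segment, hairpin and marker locus were not made.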

Additional observations from a re-analysis of the deposited data

How the results depend on the processing

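The 1 domain row called lower at P8 became 0 with DESeq2, 0 without a read filter, 0 with the longest rows chosen first and 6 of 38 over every deposited row, and leaving out each P8 library in turn gave 0 to 1. The 4 rows called lower with age became 2 in WT and 1 in KO with DESeq2. In KO, DESeq2 gave no adjusted p for chr12:109440629-109452575, which is 1 of the 4. Leaving out a P8 library also lost some of these calls in both genotypes. For the interaction, total-read scaling called 1 row higher, and leaving out a P8 library gave 0 to 1. The age change of the domain's sum (log2) was -2.27 in WT and -1.91 in KO with total reads, -1.36 and -0.95 with the domain rows of the genome-wide set, and in KO -1.38 with the longest rows first, beside -1.52 and -1.23. The P8 and P0 differences in the sum moved by less than their spread or counting interval. The cause of these changes was not tested. The P8 difference of the sum, 0.03 (log2), was small enough to change sign: it was -0.02 with total reads, -0.06 with the longest rows first, 0.11 with the domain rows of the genome-wide set, and -0.02 to 0.07 when a P8 library was left out. Single rows that changed sign had few reads and were not called: chr12:109712260-109716546 with age (-0.54 in WT with total reads, -0.53 to 0.16 in KO when a P8 library was left out, positive without KO P8 replicate 1) and the interaction at chr12:109497771-109504987 (-0.45 without WT P8 replicate 1, -0.12 without KO P8 replicate 1, and up to 1.56 without WT P8 replicate 2). Labels give the P8 genotypes the same replicate numbers but no shared origin. Same-numbered libraries deviated together (r = 0.267 across 11511 rows, 2 pairs), and with the replicate block the P8 test called 1 domain row lower and 0 higher, as without it.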

Other observations

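The sequence on either side of the domain's limits was read in the same way, over 380 kb on each side and rows that do not overlap. Gene positions on GRCm39 were not used, so the stretch after the limits may lie before Dio3, within the imprinted region. Before the domain, 8 rows summed at P0 to 62.9 CPM for WT and 52.8 for KO. At P8 they summed to 6.18 ± 1.89 CPM for WT and 10.1 ± 0.49 for KO (SD, n = 2 for each genotype). After it, 15 rows summed at P0 to 144 CPM for WT and 120 for KO. At P8 these summed to 53.8 ± 0.44 CPM for WT and 91.1 ± 6.57 for KO (SD, n = 2 for each genotype). P0 levels were above P8 levels on both sides. At P8 both KO libraries lay above both WT libraries on each side. These sums were not tested.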
